A study of Arabidopsis thaliana with 12 samples.

Results

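The NaCl response of Arabidopsis thaliana seedlings labelled camta6-5 was set against the NaCl response of the wild type, gene by gene. The contrast, the genotype by NaCl interaction, is the log2 fold change (NaCl against control) in camta6-5 minus the same log2 fold change in wild type. It used all 12 libraries in 4 groups of 3. These were wild type (Col-0) without NaCl, wild type with 200 mM NaCl, camta6-5 without NaCl and camta6-5 with 200 mM NaCl. Cold-stratified seeds had been placed on agar with MS medium, the NaCl exposure lasted 16 hours, and the labels call the harvested material pre-germinated seedlings. All genes that passed a filter on low counts were included, 18515 of the 33602 genes listed. A positive interaction means that a gene stood higher with NaCl in camta6-5 than the wild-type response would give, either through a smaller fall or through a larger rise, and a negative interaction means the reverse.

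CAMTA proteins are calmodulin-binding transcription activators, factors through which calcium signals reach gene expression, and they are known to bind promoter elements of the CGCG box type. Salt in the medium holds back germination largely through abscisic acid (ABA), the hormone that keeps the seed programme of storage and desiccation tolerance switched on. Growth of the young seedling instead draws on gibberellin, auxin, wall loosening and cell division. The study compared the genotypes to follow germination of the mutant in salt. The line camta6-5 is a single allele, and nothing in the labels says that the 3 libraries of a group came from separate cultures, so the p-values measure the spread between these libraries, which may be technical.

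The kit does not mark the strand, so reads cannot be placed surely where a gene overlaps its neighbour, which touches PYK10, MCM7, LHCA4, LHCB3, NHX3, AVP1, CSD1 and NPR1 below. Library totals ran from 29473212 to 35450685 counts. The share of counts on 18S rRNA ran from 0.02108% to 1.026%, and the 5 richest libraries were wild-type control replicate 1, camta6-5 control replicates 1 and 3, and camta6-5 NaCl replicates 1 and 2. Within camta6-5 control, replicate 2 differed most from the others, with a chi-square per gene of 55.94 and 42.32 between their counts against 22.09 between replicates 1 and 3, and had the lowest TMM factor of all libraries, 0.927. CAMTA6 itself (AT3G16940, chromosome 3, 5781775 to 5786280, TAIR10) had 14.7, 18.8 and 20.01 CPM (counts relative to the library total, scaled with TMM factors) without NaCl and 33.2, 31.8 and 27.7 CPM with it in wild type. Libraries labelled camta6-5 had 35.4, 33.2 and 35.6 CPM without NaCl and 38.2, 41.1 and 52.3 CPM with it. Every library labelled camta6-5 was therefore above every wild-type library of the same treatment, and a count per gene cannot tell an intact transcript from an interrupted one. The name camta6-5 therefore stands for the label of a library. TPR1 (AT1G80490), a corepressor gene of the TOPLESS family, also stood apart by genotype, with group means of 101 and 77.3 CPM in wild type (control, NaCl) and 6.34 and 7.28 CPM in camta6-5, and its part in the results below was not tested.

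The wild type responded to NaCl more strongly than camta6-5 in most genes that differed. A gene is described as called when its adjusted p was under 0.05 by edgeR's quasi-likelihood test with Benjamini-Hochberg adjustment over the 18515 genes. The interaction was called for 8905 genes (48.1%), 5017 of them positive (27.1%) and 3888 negative (21.0%). Interactions of at least 2-fold numbered 2225 positive and 852 negative. The median interaction over all tested genes was 0.05 on the log2 scale. NaCl was called against control in 77.5% of tested genes in wild type and in 55.6% in camta6-5. Of the 8905 genes, 8543 were called between the genotypes with NaCl and 18 without it, where 40 genes were called in all. Without the 5 libraries richest in 18S rRNA, which leaves control replicate 2 and NaCl replicate 3 as the only camta6-5 libraries, 2607 were positive and 1970 negative, and of all these 4355 were also called with 12 libraries, 0 of them in the opposite direction.

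Most called genes moved the same way in both genotypes or moved in wild type only. A smaller fall in camta6-5 was the largest class, with 2556 genes (28.7% of those called) and median log2 changes of -1.93 in wild type and -0.74 in camta6-5. A fall called in wild type only was found for 1807 genes (20.3%). A smaller rise in camta6-5 held 1856 genes (20.8%), with medians of 1.23 and 0.55, and a rise called in wild type only held 1558 genes (17.5%). Far fewer genes responded more in camta6-5. A larger rise there was found for 75 genes and a larger fall for 28, while 311 rose and 214 fell in camta6-5 only. Opposite directions were called for 228 genes that fell in wild type and rose in camta6-5, and for 195 that rose in wild type and fell in camta6-5. These classes describe calls at a threshold, and only the interaction itself tests the difference.

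**Figure D1:**
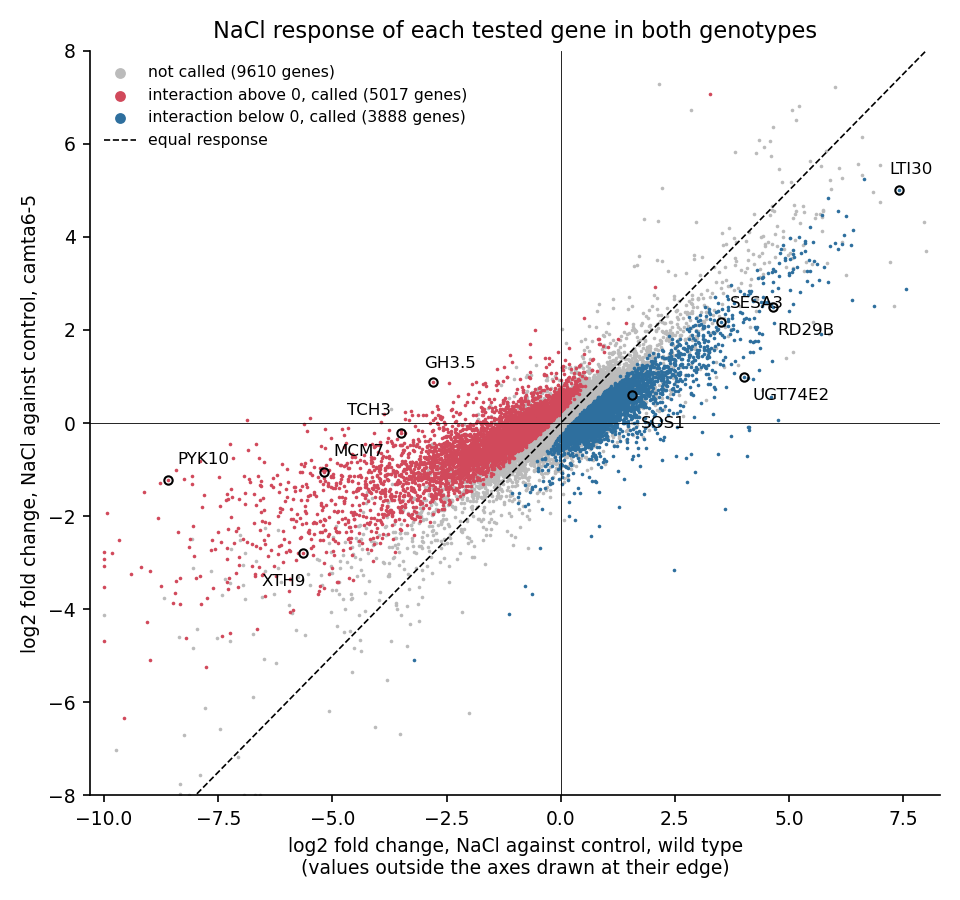
Log2 fold change with NaCl in camta6-5 (vertical axis) against that in wild type (horizontal axis), 1 point per tested gene, with values outside the axes drawn at their edge. The 5017 genes with a positive called interaction are red and the 3888 with a negative one are blue. Most genes that fell in wild type sit above the dashed line of equal response and most that rose sit below it, so the cloud is flatter than the line.

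The size of the response in camta6-5 was also expressed as a share of the wild-type response, the log2 change in camta6-5 divided by that in wild type. For the 2499 genes that rose at least 2-fold in wild type the median share was 0.529, with the middle of the distribution (quartiles) between 0.350 and 0.701. The 3924 genes that fell at least 2-fold in wild type had a lower median share of 0.385, with quartiles of 0.242 and 0.551. A share above 1 was found for 5.6% of the risen and 3.16% of the fallen genes. The libraries of camta6-5 NaCl gave the same order one by one: medians were 0.522, 0.443 and 0.606 for rises and 0.398, 0.378 and 0.406 for falls. Choosing genes by their wild-type response favours a low share. When genes were chosen instead for a change of at least 2-fold in camta6-5, the median was 0.731 for 1117 rises and 0.554 for 1580 falls, below 1 as well. The shares are a description with no test.

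**Figure D2:**
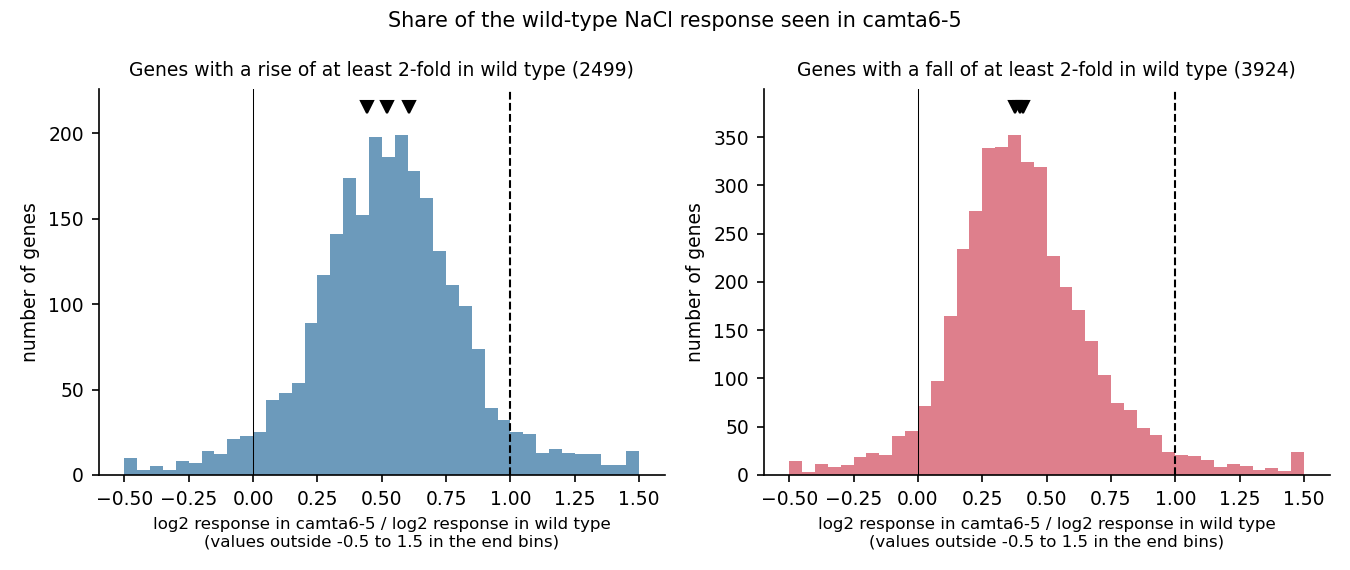
Histograms of the share of the wild-type log2 response seen in camta6-5, for the 2499 genes that rose (left) and the 3924 that fell (right) at least 2-fold in wild type, with values outside the range in the end bins. Triangles mark the medians of the 3 camta6-5 NaCl libraries, the dashed line marks an equal response, and both distributions lie mostly between 0 and 1.

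Genes of the ER body showed the largest contrast among the gene lists examined. ER bodies are compartments of the endoplasmic reticulum, found in seedlings of Arabidopsis and its relatives, that store beta-glucosidases used in defence. All 5 tested members had a positive interaction, in a list that was added once results of these data were known, against 27.1% of all tested genes. PYK10 (AT3G09260, chromosome 3, 2840477 to 2843781), the main beta-glucosidase of the ER body, had 1307, 1257 and 1839 CPM without and 5.17, 1.65 and 4.52 CPM with NaCl in wild type. The camta6-5 libraries had 1671, 1723 and 2669.5 CPM in control and 882, 726 and 982 CPM with NaCl. The wild-type NaCl libraries lay far below the other 9 and overlapped none of them. The PYK10 interaction was 7.36 ± 0.44 on the log2 scale (SE, edgeR adjusted p = 3.16e-07). In bulk seedlings, fewer cells of a type and less RNA per cell cannot be told apart, for this and every result that follows.

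NAI2, which encodes a protein needed to build the ER body, had 149.7, 183 and 204 CPM without and 2.75, 1.56 and 3.04 CPM with NaCl in wild type, while camta6-5 had 259.6, 199 and 346 CPM and 100.1, 85.5 and 103 CPM. NAI1, the bHLH transcription factor gene of the same pathway, had 27.8, 24.8 and 26.8 CPM without and 1.20, 0.451 and 1.08 CPM with NaCl in wild type, while camta6-5 had 31.9, 27.8 and 39.0 CPM and 12.01, 11.9 and 13.5 CPM. For both genes all 3 camta6-5 NaCl libraries stood between the controls and the wild-type NaCl libraries with no overlap, and the interactions were 4.70 ± 0.31 and 3.45 ± 0.27 (edgeR adjusted p = 5.87e-07 and 2.34e-06). BGLU21, a close homolog of PYK10, had 573 counts over the wild-type control libraries and 0 with NaCl. Its fall was at least 201-fold in wild type, taking 3 counts over the group as the floor, and 7.59-fold in camta6-5. BGLU22, a near copy whose reads may be shared with BGLU21, had 1320 and 2 counts in wild type, a ratio of 694 (95% counting interval 192 to 5730), and fell 8.54-fold in camta6-5. The median interaction of the 5 genes was 6.11, or 4.72 with BGLU21 set to its bound. The lectin genes JAL31 and AT3G16460 (jacalin-related lectins, of a family known to bind PYK10) behaved alike. JAL31 had 1725 counts in wild-type control and 0 with NaCl, at least 604-fold lower, against an 8.44-fold fall in camta6-5. AT3G16460 had 0.417, 0.150 and 0.171 CPM in the wild type with NaCl and 67.5, 58.3 and 72.5 CPM in camta6-5 with NaCl, with an interaction of 8.02 ± 0.52 (edgeR adjusted p = 5.33e-07).

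**Figure D3:**
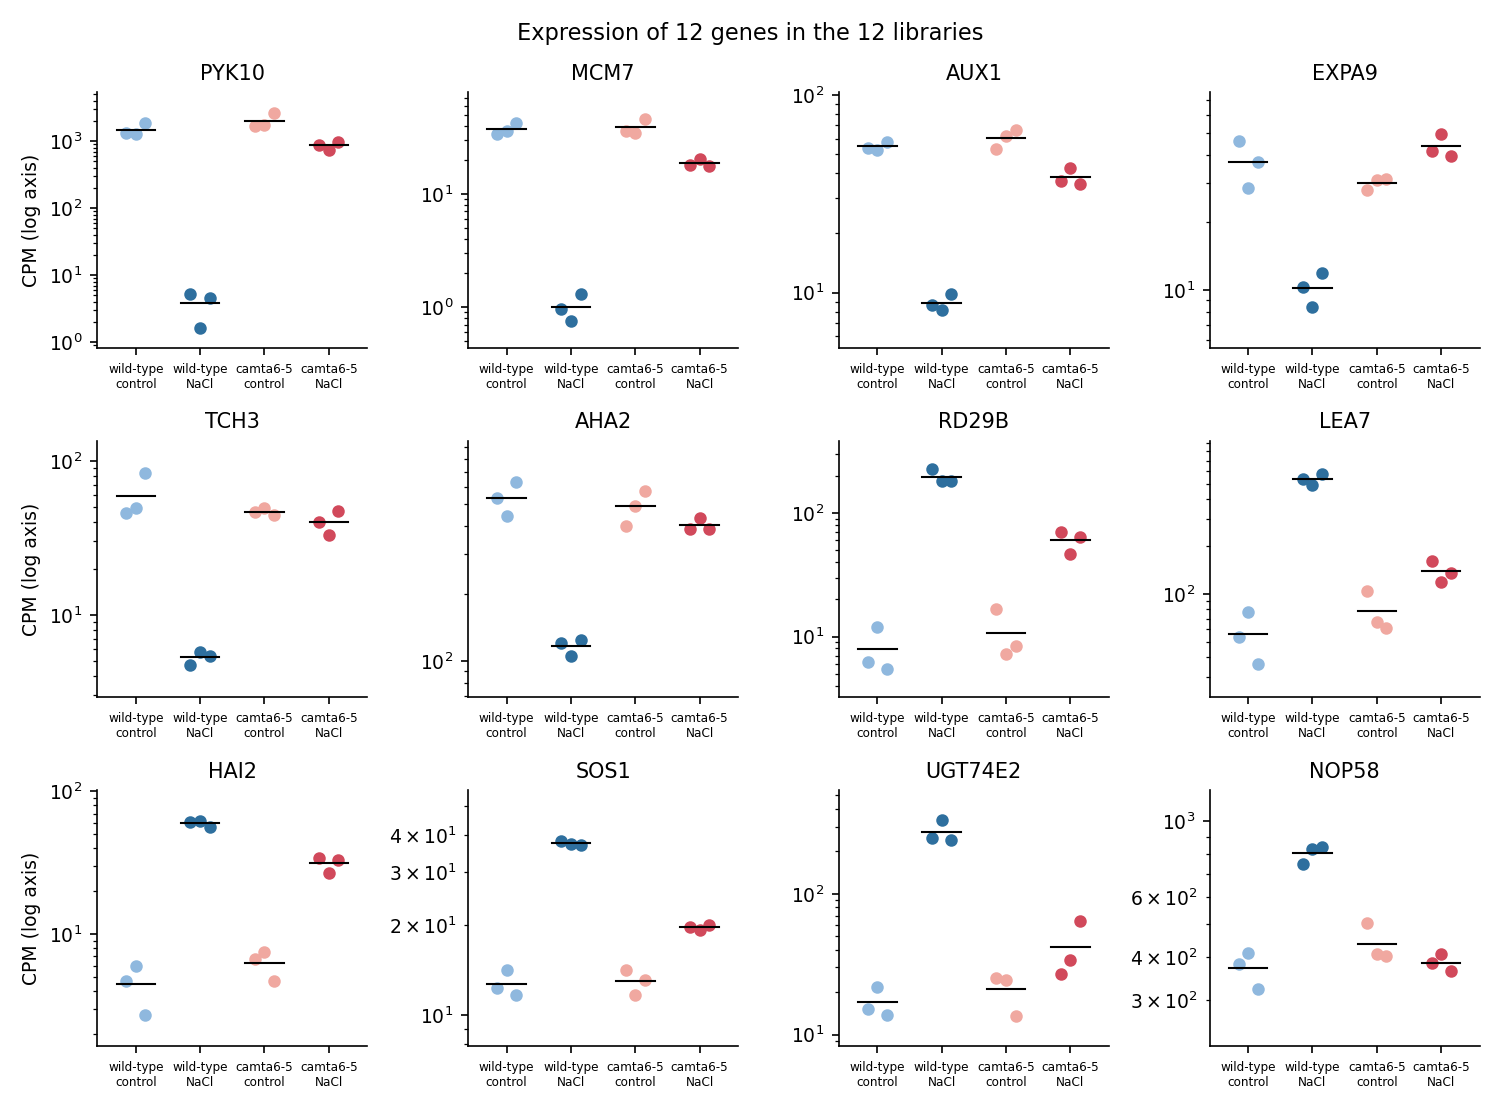
CPM (log axis) of 12 genes in the 12 libraries, 1 point per library with a bar at the group mean, by genotype and treatment. In PYK10, MCM7, AUX1, EXPA9, TCH3 and AHA2 the wild-type NaCl libraries lie below all others, and in RD29B, LEA7, HAI2, SOS1, UGT74E2 and NOP58 they lie above all others.

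Most cell division genes fell in wild type and fell less in camta6-5. Of 19 tested genes, 12 had a positive and 1 a negative interaction, 68.4% called against 48.1% of all tested genes. Median log2 changes were -2.74 in wild type and -0.89 in camta6-5, and the median interaction was 1.87. All 6 subunit genes of the MCM helicase, which unwinds DNA at replication forks, were among the 12, as were the licensing factors CDC6 (5.11) and CDT1A (1.66). MCM7 (AT4G02060, chromosome 4, 900636 to 905591) had 33.7, 35.6 and 42.1 CPM in wild-type control and 0.973, 0.752 and 1.31 CPM with NaCl. Libraries of camta6-5 had 36.01, 34.5 and 45.9 CPM in control and 17.95, 20.2 and 17.55 CPM with NaCl. The groups did not overlap between treatments in either genotype, and the interaction was 4.13 ± 0.23 (edgeR adjusted p = 1.88e-07). PCNA1, the sliding clamp of DNA polymerase, had 2.14, 1.89 and 2.62 CPM in the wild type with NaCl and 15.9, 16.6 and 15.6 CPM in camta6-5 with NaCl, with an interaction of 2.71 ± 0.18 (edgeR adjusted p = 5.46e-07). Its paralog PCNA2 did not pass (interaction -0.04). The D-type cyclins CYCD1;1, CYCD4;1 and CYCD3;1 had positive interactions of 1.96, 1.87 and 0.62. The mitotic genes CYCB1;1, CDKB1;1 and CDKB2;1 did not pass, with -0.62, -0.49 and -0.01. RNR1, of ribonucleotide reductase, was the negative one (-0.69). A related gene outside the list was ATBARD1, a DNA repair RING protein, with 998 counts in wild-type control and 2 with NaCl (a ratio of 525, 95% counting interval 145 to 4340) and a 2.44-fold fall in camta6-5.

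The helicase gene MCM2 is shown with its promoter because site II elements (GGCCCA or its reverse complement) are known from promoters of proliferation genes. It had 31.5, 35.8 and 36.4 CPM without and 2.45, 2.98 and 3.78 CPM with NaCl in wild type, against 41.8, 37.2 and 48.5 CPM and 24.4, 23.9 and 20.7 CPM in camta6-5. The genotypes overlapped in neither treatment, camta6-5 being higher in both, and the interaction was 2.61 ± 0.19 (edgeR adjusted p = 1.43e-06). In the 300 bases before the gene start (RefSeq, TAIR10.1, chr1:16969914-16970213, plus strand), printed 5′ to 3′ with site II in capitals, there were 2 copies.
MCM2: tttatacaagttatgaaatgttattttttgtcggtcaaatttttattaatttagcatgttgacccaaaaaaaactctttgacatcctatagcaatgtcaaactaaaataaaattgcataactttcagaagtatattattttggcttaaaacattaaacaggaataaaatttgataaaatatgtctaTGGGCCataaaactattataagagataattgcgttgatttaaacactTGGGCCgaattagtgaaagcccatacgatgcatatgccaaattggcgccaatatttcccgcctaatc
Among the 19 cell division genes, 10 held site II in this window, against 18.7% of the promoters of all tested genes.

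Most wall loosening genes fell in wild type, with 13 called falls and 2 rises. In camta6-5 the list fell less by its median, with 8 called falls and 5 rises. Of 17 tested genes, 11 had a positive and 0 a negative interaction by edgeR's test, 64.7% called against 48.1% of all tested genes. Median changes were -2.36 in wild type and -0.13 in camta6-5. Over members that changed at least 2-fold in wild type the median share was 0.4545, near the 0.436 of all such genes. Expansins loosen walls without cutting polymers, and EXPA9 had 45.9, 28.5 and 36.9 CPM in wild-type control and 10.3, 8.45 and 11.9 CPM with NaCl. For camta6-5 the values were 27.8, 30.7 and 31.3 CPM in control and 41.3, 49.6 and 39.6 CPM with NaCl. EXPA9 thus fell in wild type and rose in camta6-5, where the NaCl libraries lay above all 3 controls (interaction 2.40 ± 0.23, edgeR adjusted p = 7.88e-06). EXPA2 and EXPA4 had interactions of 2.81 and 1.71. EXPA1, EXPA5, EXPA8 and EXPA10 did not pass.

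The XTH genes encode xyloglucan endotransglucosylase/hydrolases, which cut and rejoin wall xyloglucan. XTH5 had 31.9, 28.5 and 40.5 CPM in the wild type with NaCl and 154, 154 and 177 CPM in camta6-5 with NaCl, where its controls were 153, 178 and 198 CPM and overlapped. Its interaction was 1.95 ± 0.18 (edgeR adjusted p = 7.90e-06). XTH9 had 281, 302 and 275 CPM in wild-type control and 5.14, 4.84 and 7.05 CPM with NaCl, against 189, 238 and 231 CPM and 29.4, 39.4 and 25.8 CPM in camta6-5. XTH9 and XTH16 fell in both genotypes, with log2 changes of -5.65 and -4.99 in wild type and -2.79 and -2.49 in camta6-5. XTH31 had low counts, 0.250, 0.0601 and 0.142 CPM in the wild type with NaCl and 7.37, 5.35 and 5.26 CPM in camta6-5 with NaCl, and an interaction of 5.61 ± 0.70. XTH17 had 103 counts over the wild-type control libraries and 0 with NaCl, a fall of at least 36.1-fold, and fell 5.64-fold in camta6-5. XTH4, XTH18 and the expansin EXPA15 completed the 11, at 3.38, 2.90 and 0.71. XTH33 did not pass (-0.64).

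Auxin carriers followed the same pattern. Of 12 tested genes of auxin transport and response, 8 had a positive and 0 a negative interaction, with a median of 1.95. The share called was 66.7%, against 48.1% of all tested genes. The influx carrier AUX1 had 54.0, 52.9 and 58.0 CPM in wild-type control and 8.70, 8.15 and 9.81 CPM with NaCl, against 53.5, 62.1 and 66.4 CPM and 36.5, 42.8 and 35.2 CPM in camta6-5. No group overlapped across treatments, and the interaction was 1.96 ± 0.15 (edgeR adjusted p = 1.43e-06). LAX2, another influx carrier, and the efflux carriers PIN2, PIN3, PIN4 and PIN7 had interactions of 2.99, 2.62, 1.904, 2.02 and 1.66. IAA19, an auxin-induced repressor, was at 2.03. GH3.5 (AT4G27260, chromosome 4, 13653609 to 13656204), an enzyme that conjugates auxin to amino acids, had 11.4, 10.4 and 11.5 CPM in wild-type control and 1.39, 1.20 and 2.16 CPM with NaCl. In camta6-5 it had 9.45, 10.4 and 9.83 CPM in control and 17.5, 19.7 and 17.55 CPM with NaCl. GH3.5 fell in wild type and rose in camta6-5 with no overlap in either genotype (interaction 3.69 ± 0.21, edgeR adjusted p = 1.96e-07). The early auxin genes GH3.1 and GH3.3 did not pass (1.48 and 1.95).

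Gibberellin genes did not share a direction. Of 19 tested genes, 5 had a positive and 4 a negative interaction, 47.4% called against 48.1% of all tested genes. The list median was 0.03, against 0.05 for all tested genes. The biosynthesis gene GA20OX3 had 34.4, 34.7 and 22.1 CPM in wild-type control and 160.2, 238 and 135 CPM with NaCl, against 33.9, 34.7 and 21.4 CPM and 35.7, 36.4 and 32.3 CPM in camta6-5. It rose in wild type, while in camta6-5 the groups overlapped (interaction -2.33 ± 0.32, edgeR adjusted p = 9.72e-05). GA3OX2, which makes the last step to active gibberellin, went the other way, falling by 3.66 on the log2 scale in wild type and by 1.66 in camta6-5 (interaction 2.0 ± 0.30). GASA6, a small gibberellin-regulated protein gene, had 0.890, 0.692 and 1.05 CPM in the wild type with NaCl and 8.21, 7.86 and 7.10 CPM in camta6-5 with NaCl, with an interaction of 3.37 ± 0.54 (edgeR adjusted p = 0.000284). Among the DELLA repressors RGL1 passed (1.104), and GAI, RGA1, RGL2 and RGL3 did not. GASA14 (2.87) and GA3OX1 (1.02) were also positive. In the 7 libraries poorest in 18S rRNA the counts were 3 and 3. The receptor gene GID1A (-0.80) and the biosynthesis genes GA20OX1 (-0.72) and GA20OX2 (-1.77) were also negative.

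Photosynthesis genes fell with NaCl, 20 of 23 in wild type and 19 in camta6-5, and 12 had a positive interaction. No member had a negative interaction, so the share called was 52.2%, against 48.1% of all tested genes in either direction and 27.1% positive. The median changes were -2.16 in wild type and -1.17 in camta6-5. The median share was 0.499, against 0.385 over all genes that fell at least 2-fold in wild type, so the smaller fall was not particular to this list. GLK1 and GLK2 encode the transcription factors that switch on chloroplast genes. GLK2 had 82.6, 64.1 and 72.7 CPM in wild-type control and 33.6, 33.4 and 35.3 CPM with NaCl, against 49.0, 43.2 and 46.4 CPM and 46.1, 45.4 and 41.3 CPM in camta6-5, where the groups overlapped. For GLK2 the genotypes overlapped in neither treatment, camta6-5 being lower without NaCl and higher with it. GLK2 and GLK1 had interactions of 1.04 ± 0.13 and 1.44 ± 0.18 (edgeR adjusted p = 4.37e-05 and 4.13e-05). LHCA4, of the light-harvesting antenna of photosystem I, had 9.90, 7.998 and 9.89 CPM in the wild type with NaCl and 38.1, 35.8 and 34.2 CPM in camta6-5 with NaCl, and an interaction of 2.16 ± 0.23 (edgeR adjusted p = 1.75e-05). LHCB3 had 3.20, but it shares its position with a neighbour that has more counts, so that value is uncertain. The small subunit genes of Rubisco RBCS1A, RBCS2B and RBCS3B were at 0.81, 1.17 and 1.51. LHCB5, RCA, GUN5 and PSBO1 did not pass, with 0.24, 0.28, 0.14 and -0.47. Counts of the RBCS and LHCB1 genes may be shared among near-identical copies.

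**Figure D4:**
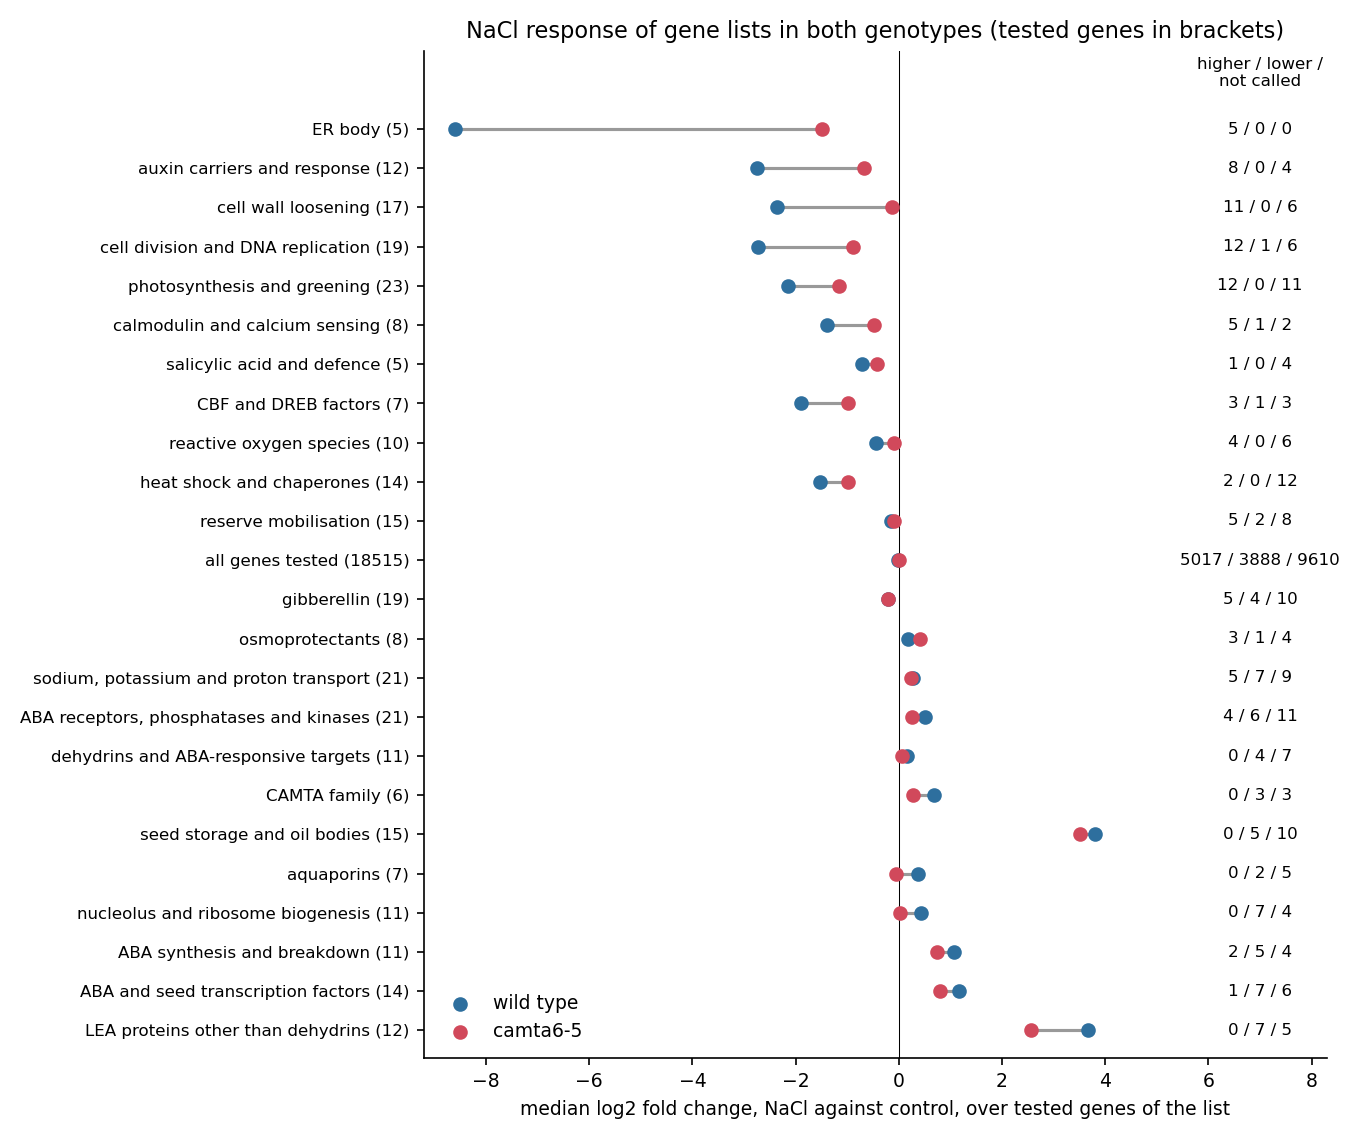
Median log2 fold change with NaCl over the tested genes of each list in wild type (blue) and camta6-5 (red), joined by a line, with the numbers of genes whose interaction was positive, negative or not called at the right. By these medians the lists at the top (ER body, auxin, wall loosening, cell division, photosynthesis) fell less in camta6-5. The LEA list at the bottom rose less. Median shares of these lists were 0.276, 0.254, 0.4545, 0.281, 0.499 and 0.791 in that order, over members that changed at least 2-fold in wild type. Over all such genes the median share was 0.385 for falls, 0.529 for rises and 0.436 for both together.

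Calcium sensor genes were examined because CAMTA proteins bind calmodulin. Of 8 tested genes, 5 had a positive and 1 a negative interaction, 75% called against 48.1% of all tested genes. The positive ones numbered 4 without wild-type control replicate 3 or wild-type NaCl replicate 1 or 3. They also numbered 4 without camta6-5 control replicate 1 or 3, or camta6-5 NaCl replicate 1 or 3. TCH3, a touch-inducible calmodulin-like gene, had 45.9, 49.5 and 83.5 CPM in wild-type control and 4.73, 5.77 and 5.43 CPM with NaCl. The camta6-5 libraries had 46.5, 49.6 and 44.6 CPM in control and 39.9, 33.1 and 47.5 CPM with NaCl, and the latter groups overlapped. Its interaction was 3.26 ± 0.29 (edgeR adjusted p = 4.70e-06). The calmodulin-like CML37 fell by 2.78 on the log2 scale in wild type and by 0.91 in camta6-5 (interaction 1.87 ± 0.29), and CML38 did not pass (-0.41). CAM2, CAM7 and CAM1 had 0.56, 0.61 and -0.33, and reads of such near-identical calmodulins may be shared.

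TCH2, another touch-inducible calmodulin-like gene, is shown with its promoter because that window holds the CGCG box (CGCGTT or its reverse complement). It had 113, 122 and 145 CPM in wild-type control and 39.8, 51.3 and 43.4 CPM with NaCl, against 126, 141 and 107 CPM and 75.03, 71.8 and 73.9 CPM in camta6-5. It fell in both genotypes without overlap, and the interaction was 0.74 ± 0.17 (edgeR adjusted p = 0.00308). That call was lost without the 5 libraries richest in 18S rRNA (0.60, adjusted p = 0.0907), where 4 genes of the list were positive and 0 negative. The promoter (TAIR10.1, chr5:14999620-14999919, minus strand) is printed 5′ to 3′ with the boxes in capitals. Each of its AACGCGTT stretches holds the motif on both strands, which makes 4 copies.
TCH2: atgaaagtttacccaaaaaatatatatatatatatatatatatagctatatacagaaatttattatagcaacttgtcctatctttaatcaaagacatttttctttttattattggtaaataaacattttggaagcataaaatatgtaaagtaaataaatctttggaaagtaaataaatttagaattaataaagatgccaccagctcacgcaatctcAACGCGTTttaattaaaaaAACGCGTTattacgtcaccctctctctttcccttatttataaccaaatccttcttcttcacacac
TCH2 was the only 1 of the 8 calcium sensor genes with this motif in the window, and 3.37% of the promoters of all tested genes held it.

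Within the CAMTA family, 3 of 6 genes had a negative interaction and 0 a positive one, a share called of 50% against 48.1% of all tested genes. CAMTA4 had 14.2, 15.2 and 16.2 CPM in wild-type control and 56.8, 46.5 and 42.1 CPM with NaCl, against 15.5, 13.1 and 14.0 CPM and 27.1, 22.0 and 30.4 CPM in camta6-5. It rose in both genotypes with no overlap (interaction -0.78 ± 0.18, edgeR adjusted p = 0.00378). CAMTA2 and CAMTA5 had -0.39 and -0.33, the latter at an adjusted p of 0.048, and that call was lost with the replicate number as a block (0.0622) and whenever 1 library was left out (adjusted p up to 0.114), except for the third replicates of wild-type control, wild-type NaCl and camta6-5 NaCl. CAMTA6 was at -0.46 ± 0.18 and did not pass (edgeR adjusted p = 0.0512). With all 12 libraries it passed under RLE factors (adjusted p = 0.0393), with no filter (0.0388), in DESeq2 (0.028), in limma voom (0.0414) and with the replicate number as a block (0.0467), so the call lies at the threshold. With 1 library left out it passed without wild-type control replicate 3 (-0.58, adjusted p = 0.0223), wild-type NaCl replicate 3 (-0.54, 0.0349), camta6-5 control replicate 2 (-0.51, 0.0493) or camta6-5 NaCl replicate 3 (-0.60, 0.00968). Without wild-type control replicate 3, 6 members were called. Without the 5 libraries richest in 18S rRNA 0 were called, with CAMTA2 at -0.34 (adjusted p = 0.139), CAMTA4 at -0.45 (0.21), CAMTA5 at -0.19 (0.464) and CAMTA6 at -0.05 (0.861).

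Ion transport genes included both directions. Of 21 tested genes, 5 had a positive and 7 a negative interaction, 57.1% called against 48.1% of all tested genes (27.1% positive and 21.0% negative), with a median of -0.18 against 0.05. SOS1 (AT2G01980, chromosome 2, 457010 to 463326), the plasma membrane exchanger that moves sodium out of the cell, had 12.3, 14.1 and 11.7 CPM in wild-type control and 38.1, 37.4 and 37.1 CPM with NaCl. Libraries of camta6-5 had 14.2, 11.7 and 13.1 CPM in control and 19.6, 19.3 and 20.03 CPM with NaCl. SOS1 rose without overlap in both genotypes, less in camta6-5 (interaction -0.97 ± 0.12, edgeR adjusted p = 5.30e-05). The vacuolar exchangers NHX1 and NHX3, which load sodium or potassium into the vacuole, had interactions of -0.73 ± 0.14 and -1.17 ± 0.20 (edgeR adjusted p = 0.000963 and 0.000478). NHX1 had 26.6, 30.4 and 25.3 CPM in the wild type with NaCl and 15.2, 15.6 and 16.1 CPM in camta6-5 with NaCl. SOS3, the calcium sensor of the SOS pathway, was at -0.76, and its partner kinase SOS2 did not pass (-0.18). CAX3, a vacuolar calcium exchanger, had 293, 272 and 262 CPM in the wild type with NaCl and 122, 102 and 129 CPM in camta6-5 with NaCl, with an interaction of -1.02 ± 0.16 (edgeR adjusted p = 0.000237). NHX6 and CAX1 were the other negative ones (-0.49 and -0.68). HKT1 had too few counts to be tested.

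The 5 positive interactions were all of proton pump genes, which energise these exchangers. AHA2, a plasma membrane proton ATPase, had 533, 446 and 626 CPM in wild-type control and 120.0, 106 and 125 CPM with NaCl, against 402, 489.9 and 575 CPM and 388, 437 and 386 CPM in camta6-5. In wild type the fall left no overlap, while in camta6-5 the groups overlapped (interaction 1.92 ± 0.20, edgeR adjusted p = 1.22e-05). AHA3, AHA1 (which rose in both genotypes) and the vacuolar ATPase gene VHA-A had 0.86, 0.36 and 0.45. The vacuolar pyrophosphatase gene AVP1 had 1510.4, 1509 and 1568 CPM in the wild type with NaCl and 2441, 2659.8 and 2327 CPM in camta6-5 with NaCl, an interaction of 0.72 ± 0.14 (edgeR adjusted p = 0.00136). With the 5 libraries richest in 18S rRNA left out AVP1 stood at 0.42 (adjusted p = 0.088), while SOS1 (-0.80, 0.0187) and NHX1 (-0.76, 0.0329) were still called there. In those 7 remaining libraries the list had 2 positive and 4 negative genes. The potassium transporter gene HAK5 rose in both genotypes (3.55 and 3.83) and its interaction did not pass (0.28).

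ABA synthesis and breakdown genes had 2 positive and 5 negative interactions among 11 tested, 63.6% called against 48.1% of all tested genes. ABA3, which activates the last enzyme of ABA synthesis, rose from 9.02, 10.6 and 8.01 CPM to 31.7, 32.1 and 29.2 CPM in wild type and from 10.5, 8.09 and 9.83 CPM to 16.0, 15.01 and 16.6 CPM in camta6-5. The groups did not overlap, and the interaction was -1.01 ± 0.16 (edgeR adjusted p = 0.000269), or -0.73 (adjusted p = 0.052) without the 5 libraries richest in 18S rRNA. CYP707A2 and CYP707A3 both encode ABA hydroxylases, which break ABA down, and moved in opposite ways. CYP707A2 rose from 17.98, 20.4 and 10.7 CPM to 109, 135 and 109 CPM in wild type and from 21.9, 17.57 and 13.8 CPM to 42.5, 42.2 and 38.3 CPM in camta6-5. CYP707A3 fell from 90.9, 105 and 93.7 CPM to 16.5, 16.8 and 14.9 CPM in wild type and from 101, 112 and 87.5 CPM to 52.2, 41.9 and 56.1 CPM in camta6-5. In both genes the camta6-5 NaCl libraries lay between the controls and the wild-type NaCl libraries, and the interactions were -1.64 ± 0.28 and 1.58 ± 0.16 (edgeR adjusted p = 0.000447 and 1.34e-05). NCED6, a carotenoid cleavage enzyme of ABA synthesis, had 0.751, 1.95 and 1.56 CPM in the wild type with NaCl and 0.261, 0.484 and 0.201 CPM in camta6-5 with NaCl, and it fell in camta6-5 only (interaction -3.04 ± 0.69, edgeR adjusted p = 0.00281). NCED3, which responds to drought, was at 1.04 (edgeR adjusted p = 0.0477), and NCED5 and NCED9 did not pass. ABA1 and AAO3, of ABA synthesis, were also negative (-0.50 and -0.48). In the 7 libraries poorest in 18S rRNA, 1 was positive and 2 negative. The positive genes numbered 1 without wild-type control replicate 1 or 3, wild-type NaCl replicate 2, camta6-5 control replicate 1 or 2, or camta6-5 NaCl replicate 2 or 3.

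ABA perception genes had 4 positive and 6 negative interactions among 21 tested, 47.6% called against 48.1% of all tested genes, so the number called is that of the background. The 4 positive ones were all receptors (PYR1, PYL1, PYL2 and PYL4), which fell in wild type and fell less in camta6-5. PYR1 had 35.3, 32.6 and 43.4 CPM in the wild type with NaCl and 69.8, 83.5 and 78.4 CPM in camta6-5 with NaCl, an interaction of 0.77 ± 0.15, and PYL4 had 1.07 ± 0.21 (edgeR adjusted p = 0.000957 and 0.00104). The receptor PYL9 had a negative interaction (-0.49). The other negative ones were the phosphatase genes HAI3, HAI2, AHG1 and HAB1, which restrain ABA signalling, and the kinase gene SNRK2.6. HAI2 had 4.68, 5.96 and 2.68 CPM in wild-type control and 61.4, 62.5 and 56.2 CPM with NaCl, against 6.72, 7.47 and 4.68 CPM and 34.0, 27 and 32.9 CPM in camta6-5. It rose without overlap in both genotypes, with an interaction of -1.44 ± 0.30 (edgeR adjusted p = 0.00157). HAI3 was at -1.77 ± 0.31 (edgeR adjusted p = 0.000496). ABI1, ABI2 and PP2CA did not pass, with -0.23, -0.23 and -0.27. In the 7 libraries poorest in 18S rRNA, 2 were positive and 3 negative.

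Transcription factors of ABA and of the seed programme had 7 negative and 1 positive interaction among 14 tested. The share called was 57.1%, against 48.1% of all tested genes. ABI5 (AT2G36270, chromosome 2, 15204764 to 15207528), the bZIP factor that arrests seedlings after germination, had 57.5, 61.5 and 49.6 CPM in wild-type control and 232, 234 and 211 CPM with NaCl. For camta6-5 the values were 79.2, 67.5 and 61.3 CPM in control and 157, 130.0 and 143 CPM with NaCl. ABI5 rose without overlap in both genotypes (interaction -0.96 ± 0.15, edgeR adjusted p = 0.000249). ABI3, a B3 factor of seed maturation, PIL5, a bHLH factor that restrains germination in the dark, and SOM, a zinc finger gene acting after it, had -0.58 ± 0.11, -0.90 ± 0.16 and -1.25 ± 0.25 (edgeR adjusted p = 0.000708, 0.000594 and 0.00121). ABF1, ABF2 and WRI1 were the other negative ones. ABI4 was the positive one (0.40, edgeR adjusted p = 0.0317), and that call was lost without wild-type control replicate 1, wild-type NaCl replicate 1, 2 or 3, camta6-5 control replicate 1 or 3, or camta6-5 NaCl replicate 2 (0.29 to 0.40, adjusted p 0.053 to 0.114). ABF3, ABF4, FUS3, LEC2, DOG1 and MFT did not pass. The negative genes numbered 4 without wild-type NaCl replicate 2 or without camta6-5 NaCl replicate 1. In the 7 libraries poorest in 18S rRNA 5 were negative and 0 positive.

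Dehydrins and other ABA targets had 4 negative interactions among 11 tested, and 7 genes did not pass. The share called was 36.4%, against 48.1% of all tested genes in either direction and 21.0% negative. RD29B (AT5G52300, chromosome 5, 21237056 to 21239529), a hydrophilic stress protein gene used as a reporter of ABA, had 6.21, 12.04 and 5.46 CPM in wild-type control and 226, 182 and 182 CPM with NaCl. In camta6-5 it had 16.6, 7.17 and 8.31 CPM in control and 70.1, 46.9 and 63.7 CPM with NaCl. RD29B rose without overlap in both genotypes, less in camta6-5 (interaction -2.15 ± 0.43, edgeR adjusted p = 0.00134). The dehydrin gene LTI30 had 186, 182 and 156 CPM in the wild type with NaCl and 20.4, 13.5 and 14.97 CPM in camta6-5 with NaCl, from controls at or under 1.62 CPM (interaction -2.40 ± 0.61, edgeR adjusted p = 0.00581). ERD14, another dehydrin gene, differed in kind, with 34.3, 41.7 and 53.2 CPM and 49.5, 54.2 and 40.3 CPM in wild type and 36.2, 26.3 and 33.3 CPM and 14.6, 13.0 and 13.8 CPM in camta6-5. It fell in camta6-5 only (interaction -1.37 ± 0.23, edgeR adjusted p = 0.00035). RAB18, with rises of 4.74 and 4.24, did not pass (-0.49). RD29A was at -1.81 ± 0.56 (edgeR adjusted p = 0.0175), a call lost without camta6-5 control replicate 1 (-1.75, adjusted p = 0.0513) or 3 (-1.51, 0.0749). When the 5 libraries richest in 18S rRNA were left out, RD29A stood at -0.40 (adjusted p = 0.765) and RD29B at -1.37 (0.0677), and the list had 2 negative genes and 1 positive.

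The LEA list rose in both genotypes, by less in camta6-5. LEA proteins protect cells during drying. All 12 tested genes rose in each genotype, with medians of 3.67 in wild type and 2.55 in camta6-5, and 7 had a negative interaction against 21.0% of all tested genes. The median share was 0.791, against 0.529 over all genes that rose at least 2-fold in wild type, so the list kept more of its rise than those genes did. LEA7 (AT1G52690, chromosome 1, 19619745 to 19621534) had 53.8, 77.2 and 35.8 CPM in wild-type control and 531, 493 and 579 CPM with NaCl. The camta6-5 libraries had 105, 66.7 and 61.3 CPM in control and 162, 119 and 137 CPM with NaCl. Both rises left no overlap (3.26 in wild type and 0.84 in camta6-5), and the interaction was -2.42 ± 0.34 (edgeR adjusted p = 0.00012). ECP63 was at -1.59 ± 0.36 (edgeR adjusted p = 0.00298), or -0.96 (adjusted p = 0.103) without the 5 libraries richest in 18S rRNA. EM6, RAB28, LEA4-1, LEA4-5 and LEA14 were the other negative ones (-1.09, -1.08, -1.25, -1.07 and -0.53), and EM1, ECP31, M10, M17 and LEA18 did not pass. Of these genes M17 alone had a value above 0 (0.50). The count of 7 was 4 without camta6-5 control replicate 1 or without camta6-5 NaCl replicate 2, and without the 5 libraries richest in 18S rRNA it was 3, with 1 positive.

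Promoters of RD29B, LEA7 and SOS1 are shown because each holds the ABRE core (ACGTG or its reverse complement), part of the element through which ABA acts. They are the 300 bases before the gene start (RefSeq, TAIR10.1), on the plus strand at chr5:21236721-21237020, chr1:19619424-19619723 and chr2:456702-457001, printed 5′ to 3′ with the core in capitals. Counting both strands, they hold 4, 5 and 2 copies, where a CACGTG stretch counts on each strand.
RD29B: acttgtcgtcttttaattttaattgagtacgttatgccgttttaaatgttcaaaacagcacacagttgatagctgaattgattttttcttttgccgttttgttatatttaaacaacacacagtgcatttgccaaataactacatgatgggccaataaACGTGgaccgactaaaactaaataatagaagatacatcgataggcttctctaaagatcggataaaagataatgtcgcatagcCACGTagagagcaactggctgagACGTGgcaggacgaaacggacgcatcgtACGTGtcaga
LEA7: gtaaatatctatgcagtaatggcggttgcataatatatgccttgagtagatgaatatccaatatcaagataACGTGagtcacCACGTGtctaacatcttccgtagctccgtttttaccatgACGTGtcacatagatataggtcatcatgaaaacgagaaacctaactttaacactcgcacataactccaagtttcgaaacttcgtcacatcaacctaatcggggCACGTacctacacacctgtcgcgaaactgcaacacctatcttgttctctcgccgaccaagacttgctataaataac
SOS1: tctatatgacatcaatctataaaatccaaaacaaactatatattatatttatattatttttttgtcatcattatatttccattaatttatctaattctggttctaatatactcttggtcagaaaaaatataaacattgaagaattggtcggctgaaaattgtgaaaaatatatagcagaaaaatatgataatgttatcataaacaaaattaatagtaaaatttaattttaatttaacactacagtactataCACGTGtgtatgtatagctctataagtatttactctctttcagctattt
The core was found in 11 of the 12 LEA promoters and in 26% of the promoters of all tested genes, so a match alone is common.

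Storage protein and oil body genes rose strongly in both genotypes. All 15 tested genes rose in each genotype, with medians of 3.79 in wild type and 3.504 in camta6-5 and a median share of 0.855, against 0.529 over all genes that rose at least 2-fold in wild type. A negative interaction was called for 5, and 10 did not pass. The share called was 33.3%, against 48.1% of all tested genes in either direction and 21.0% negative. The 5 were SESA1, SESA3 and SESA4, of the 2S albumins, CRB, of the cruciferins, and CLO1, an oil body caleosin. SESA4 did not stand lower in camta6-5 with NaCl, where group means were 91.5 CPM (camta6-5) and 82.3 CPM (wild type). Its control means were 22.6 and 7.55 CPM in the same order, and neither genotype difference was called. SESA3 (AT4G27160, chromosome 4, 13611796 to 13612563) had 144, 152 and 128 CPM in wild-type control and 1536, 1810.3 and 1490.0 CPM with NaCl, against 95.6, 122.7 and 78.7 CPM and 513, 362 and 457 CPM in camta6-5. The genotypes overlapped in neither treatment, camta6-5 being lower in both, and the interaction was -1.35 ± 0.22 (edgeR adjusted p = 0.000351). CLO1 had 203, 189.9 and 158 CPM in the wild type with NaCl and 101, 75.8 and 96.4 CPM in camta6-5 with NaCl, with an interaction of -1.47 ± 0.36 (edgeR adjusted p = 0.00454). By contrast the cruciferin CRU3, with 2809.9, 2775 and 2364 CPM in the wild type with NaCl and 2333, 1632 and 2761 CPM in camta6-5 with NaCl, did not pass (interaction -0.39 ± 0.34, edgeR adjusted p = 0.367). CRA1, CRU2, SESA2, SESA5 and OLEO4 lay between -0.16 and 0.20. The SESA genes are near copies in a cluster, and how reads were divided among them is not known.

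SESA3 and CRU3 are printed as one storage gene that passed and one that did not, with the RY core (CATGCA or its reverse complement), known from seed-specific promoters, in capitals. Both windows are the 300 bases before the gene start (RefSeq, TAIR10.1) on the plus strand, at chr4:13611496-13611795 and chr4:14087256-14087555. SESA3 holds 7 copies over both strands, several of them overlapping, and CRU3 holds 1.
SESA3: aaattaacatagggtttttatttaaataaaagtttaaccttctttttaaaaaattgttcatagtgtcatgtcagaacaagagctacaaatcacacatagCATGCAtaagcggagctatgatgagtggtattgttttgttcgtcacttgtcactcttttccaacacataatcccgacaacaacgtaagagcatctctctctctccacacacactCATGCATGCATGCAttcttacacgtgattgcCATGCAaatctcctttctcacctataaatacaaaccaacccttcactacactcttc
CRU3: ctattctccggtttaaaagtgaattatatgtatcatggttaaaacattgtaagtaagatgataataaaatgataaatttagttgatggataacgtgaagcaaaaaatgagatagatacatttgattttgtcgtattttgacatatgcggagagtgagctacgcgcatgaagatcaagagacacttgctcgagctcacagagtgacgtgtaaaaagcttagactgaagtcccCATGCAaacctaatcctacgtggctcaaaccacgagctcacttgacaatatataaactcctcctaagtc
The RY core was found in 14 of the 15 storage and oil body promoters and in 9.14% of the promoters of all tested genes.

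Nucleolar genes rose with NaCl in wild type, with a median log2 change of 0.44, and had a median of 0.02 in camta6-5. Of 11 tested genes 7 had a negative interaction and 0 a positive one, in a list that was added once results of these data were known. The share called was 63.6%, against 48.1% of all tested genes. Rises were called for 9 of the 11 in wild type and for 1 in camta6-5. NOP58, a core protein of the particles that guide rRNA methylation, had 382, 412 and 323 CPM in wild-type control and 749.8, 830.4 and 839 CPM with NaCl. Libraries of camta6-5 had 502, 408 and 403 CPM in control and 383, 409 and 363 CPM with NaCl. All 3 wild-type NaCl libraries were above every other library, while the camta6-5 groups overlapped (interaction -1.30 ± 0.15, edgeR adjusted p = 3.20e-05). PES, a pescadillo homolog of ribosome assembly, and the nucleolin gene NUC-L1 had -0.77 ± 0.10 and -0.59 ± 0.12 (edgeR adjusted p = 5.17e-05 and 0.00112). CBF5, GAR1, SWA1 and DIM1A did not pass. The 5 libraries richest in 18S rRNA include 4 of camta6-5. Without them the median interaction of the list was -0.71, against -0.46 with all 12 libraries. That fit has 1 library in each camta6-5 group, the control being replicate 2, and the part of rRNA content was not tested.

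Reserve mobilisation genes moved in both directions. In wild type 4 of 15 rose and 7 fell, in camta6-5 2 rose and 5 fell, and the median log2 changes over these opposing members were -0.15 and -0.09. Of 15 tested genes, 5 had a positive and 2 a negative interaction, 46.7% called against 48.1% of all tested genes. SDP1, the lipase that starts oil breakdown, had 155, 140.2 and 142 CPM in wild-type control and 233, 249 and 205 CPM with NaCl, against 143, 132 and 139 CPM and 145, 139 and 146 CPM in camta6-5. The wild-type rise left no overlap, and the camta6-5 groups overlapped (interaction -0.60 ± 0.11, edgeR adjusted p = 0.000665). ICL, isocitrate lyase of the glyoxylate cycle, and PMDH2, a peroxisomal malate dehydrogenase, were positive (0.75 and 1.62). PCK1, LACS6 and PMDH1 were also positive and ACX2 was also negative (0.33, 0.54, 0.47 and -0.60). The counts were 2 and 2 in the 7 libraries poorest in 18S rRNA. MLS, the partner enzyme of ICL, did not pass (0.05).

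Other stress lists are read beside the 48.1% of all tested genes with a called interaction. Heat shock genes and chaperones had 2 positive and 0 negative interactions among 14 (14.3%), HSFA2, a heat stress factor, at 1.95 and the chaperone BIP1 at 0.70. The negative ones numbered 4 without wild-type control replicate 3 and 2 without camta6-5 control replicate 3. Among CBF and DREB factors, which act in cold and drought, 3 of 7 were positive (CBF1, CBF2 and DDF1, at 1.19, 0.91 and 1.15) and DREB2B was negative (-1.21, edgeR adjusted p = 0.036), 57.1% in all. The DREB2B call was lost without wild-type control replicate 1 or 3, wild-type NaCl replicate 1 or 2, camta6-5 control replicate 1, or camta6-5 NaCl replicate 1 or 2. In the 7 libraries poorest in 18S rRNA, with 1 library in each camta6-5 group, none of the 4 was called, with CBF1 at 1.07 (adjusted p = 0.0511), CBF2 at 0.68, DDF1 at 0.65 and DREB2B at -0.27. Enzymes of reactive oxygen had 4 positive interactions among 10 (RBOHF, CSD1, CSD2 and APX1, 40%), and 2 without wild-type NaCl replicate 1. RBOHF, an oxidase that makes superoxide, had 136 and 3 counts in wild type, a ratio of 47.7 (95% counting interval 16 to 234), and fell 4.38-fold in camta6-5. Osmoprotectant genes had 3 positive and 1 negative interaction among 8 (50%), namely P5CS2, P5CR and RS5 and, negative, STS. P5CS2 and STS had an edgeR adjusted p of 0.0343 and 0.0479. Leaving out 1 library ended the P5CS2 call except for wild-type control replicate 2 and camta6-5 NaCl replicate 2, and the STS call except for wild-type control replicate 3, wild-type NaCl replicate 3 and camta6-5 NaCl replicate 1. STS was also lost with the replicate number as a block (0.0771). Of the 5 tested genes of salicylic acid and defence only NPR1, the salicylic acid receptor, passed (0.59), and it was called in the 7 libraries poorest in 18S rRNA too. Aquaporins had 2 negative interactions among 7 (28.6%), PIP1;1 (-0.60) and PIP1;2 (-0.45), and 4 without wild-type control replicate 2. In the 7 libraries poorest in 18S rRNA, 1 aquaporin, 1 gene of reactive oxygen (positive) and 0 osmoprotectant genes were called. In those libraries the log2 values of P5CR (0.55), RS5 (2.31), STS (-2.32), APX1 (1.44) and PIP1;2 (-0.49) kept about their size or were larger. With 12 libraries they were 0.57, 2.21, -2.25, 1.15 and -0.45. P5CS2 was at 0.22 against 0.24. CSD1 and CSD2 were smaller in the 7 libraries, at 0.13 and 0.44 against 0.35 and 0.61 with 12. In that fit the heat shock list had 1 positive and 1 negative gene.

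The most negative interactions among genes that reached 5 CPM in a group lay outside these lists. UGT74E2 (AT1G05680, chromosome 1, 1703092 to 1704691), a glycosyltransferase acting on the auxin precursor indole butyric acid, had 15.3, 21.9 and 13.7 CPM in wild-type control and 248, 332 and 240.4 CPM with NaCl. For camta6-5 the values were 25.03, 24.3 and 13.6 CPM in control and 27.1, 34.0 and 64.6 CPM with NaCl. The wild-type NaCl libraries were above all others by a wide margin (interaction -3.02 ± 0.43, edgeR adjusted p = 0.00013). CYP71B26, a cytochrome P450 gene, and ATGSTU24, a glutathione transferase gene, had -3.13 ± 0.39 and -2.78 ± 0.43 (edgeR adjusted p = 5.04e-05 and 0.000238). ATGSTU24 had 12.7, 20.3 and 12.6 CPM in the wild type with NaCl and 1.80, 2.11 and 1.31 CPM in camta6-5 with NaCl, the latter overlapping its controls. ATG8H, of the autophagosome, rose from 0.510, 1.04 and 0.638 CPM to 13.1, 15.4 and 12.1 CPM in wild type and from 1.21, 0.652 and 1.43 CPM to 4.03, 1.82 and 3.75 CPM in camta6-5, and AT4G18690 had an interaction of -2.82. ATG8H was at -2.67 ± 0.48, or -1.52 (adjusted p = 0.0502) without the 5 libraries richest in 18S rRNA.

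Few genes responded more in camta6-5. AT2G14878 had 51.5, 44.4 and 47.9 CPM in wild-type control and 91.8, 78.1 and 85.0 CPM with NaCl, against 43.5, 49.9 and 41.4 CPM and 147, 113 and 209 CPM in camta6-5. AT1G03106 had 90.8, 81.8 and 91.0 CPM in the wild type with NaCl and 154, 122.6 and 196 CPM in camta6-5 with NaCl. Both rose in each genotype, more in camta6-5, with interactions of 0.97 ± 0.24 and 0.85 ± 0.19 (edgeR adjusted p = 0.0045 and 0.00279). Among larger falls was AHB2, a plant haemoglobin gene, with 73.1, 75.6 and 62.0 CPM and 44.0, 61.6 and 59.1 CPM in wild type and 80.8, 78.7 and 74.5 CPM and 27.03, 37.8 and 24.5 CPM in camta6-5. AHB2 fell in both, with an interaction of -1.03 ± 0.22 (edgeR adjusted p = 0.00174).

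Genes called in opposite directions were led by GH3.5, given above, and by ATSPLA2-ALPHA, a secreted phospholipase gene. The latter had 6.04, 5.83 and 5.68 CPM in wild-type control and 0.917, 1.503 and 1.28 CPM with NaCl, against 4.07, 5.22 and 6.11 CPM and 7.11, 7.18 and 8.84 CPM in camta6-5. It fell in wild type and rose in camta6-5 without overlap (interaction 2.83 ± 0.25, edgeR adjusted p = 5.45e-06). In the other direction AT1G69760 had 42.9, 43.2 and 29.2 CPM and 66.3, 71.2 and 73.5 CPM in wild type and 46.8, 43.2 and 46.5 CPM and 20.5, 29.7 and 20.7 CPM in camta6-5. It rose in wild type and fell in camta6-5, also without overlap (interaction -1.81 ± 0.22, edgeR adjusted p = 3.76e-05). The NAC factor gene anac044 and AT5G13210 had the same pattern, at -1.92 and -2.57.

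Markers of seedling parts were read beside these results. The summed level of 8 seed coat and endosperm markers was 30.8 to 64.7 CPM without NaCl and 32.2 to 51.5 CPM with it in wild type, and 34.6 to 40.0 CPM and 36.03 to 51.6 CPM in camta6-5, so the 4 groups overlapped. In each group 3 or 4 of the 8 were at 0, and of the 3 that could be tested MUM2, a wall enzyme of seed coat mucilage, had a positive interaction (2.09). Root markers summed to 3.37 to 4.24 CPM in wild-type NaCl and 6.18 to 7.84 CPM in camta6-5 NaCl, where the controls were at 5.36 to 7.25 CPM, and 2 or 3 of the 4 were at 0. The shoot meristem genes STM and KNAT1 summed to 11.6 to 12.9 CPM in wild-type NaCl and 19.3 to 21.2 CPM in camta6-5 NaCl, against 20.5 to 27.1 CPM in the controls. STM had an interaction of 1.51 ± 0.21 (edgeR adjusted p = 0.000111). Of the 4 root markers only RHD6 could be tested (interaction 0.70, edgeR adjusted p = 0.00847). RHD6, STM and KNAT1 (0.60) thus moved with the growth lists, and their part in those results was not tested.

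Promoter motifs were counted in the 300 bases before 18442 nuclear tested genes. The ABRE core was present for 37.6% of genes with a negative interaction of at least 2-fold, 25.6% of those with a positive one and 26% of all tested genes. The dehydration response element (DRE, ACCGAC or GCCGAC) was present for 15.4%, 7.33% and 9.42%. For the CGCG box, counted only as CGCGTT or its reverse complement, the shares were 3.42%, 3.51% and 3.37%. Site II was present for 18.6%, 12.4% and 18.7%, the telo box (AAACCCTA) for 5.31%, 2.88% and 4.72% and the RY core for 12.6%, 12.2% and 9.14%. Among all called genes of any size the ABRE core was present for 28.2% of negative and 24.8% of positive ones, the DRE for 11.7% and 7.52%, site II for 23.1% and 16.5% and the telo box for 6.13% and 3.99%. The higher ABRE share among negative genes was thus larger at 2-fold and above, and site II exceeded its share over all tested genes only when smaller interactions were included. As CGCGTT alone, the share of the CGCG box was nearly the same in the 3 sets of the first comparison. Other forms of the box were not counted. A match is not a binding site, the sets share genes with the total, and the shares are a description with no test.

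**Figure D5:**
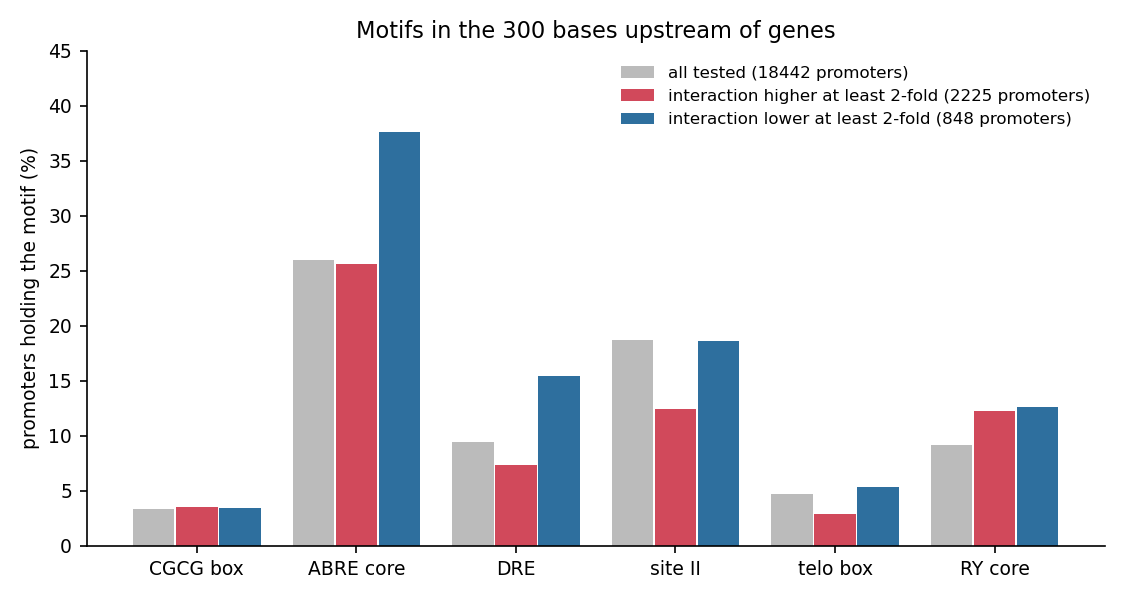
Share of promoters (300 bases before the gene start, percent) that hold each of 6 motifs, for all tested genes (grey), genes with a positive (red) and genes with a negative (blue) interaction of at least 2-fold. The blue bars of the ABRE core (37.6%) and the DRE (15.4%) stand above the grey bars (26% and 9.42%). The 3 bars of the CGCG box, counted only as CGCGTT, are level.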

How the data were processed

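RNA of 12 libraries was made with an Illumina TruSeq RNA v2 kit, which does not mark strand, per the labels' protocols. The authors deposited raw counts per gene, whole numbers with no normalization. The submitters' processing notes name cutadapt 1.9, TopHat2 2.1.0, Bowtie2 2.2.6, HTSeq 0.6.1, DESeq2 1.10.0 and the build TAIR10. Settings, and the treatment of reads that fall on more than 1 gene, are not given in the sources used here.

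The analysis used edgeR 4.0.16 under R 4.3.3. filterByExpr with the 4 groups (minimum count 10, minimum total 15) kept 18515 genes, TMM factors scaled the libraries, and all 12 libraries entered one quasi-likelihood fit of the group means, with 8 residual degrees of freedom. The interaction and the NaCl response of each genotype were tested two-sided, with Benjamini-Hochberg adjustment over all genes and a threshold of 0.05. The SE of an estimate is its size over the root of its F value. Folds against a group at 0 use 3 counts over that group as the floor; floors and intervals cover counting error only, since reads are not independent molecules. The fit was also run on counts simulated from its own group means and dispersions, which cannot check whether its model holds for these libraries.

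The named genes are CAMTA6, 7 salt and ABA genes, the largest interactions among genes with a group mean of at least 5 CPM (in either direction, called in opposite directions, and with a larger response in camta6-5), and up to 4 genes of smallest adjusted p per list, with members that did not pass. Further list members are named to complete a count or a gene family, some chosen after their values were seen. Members, lists, rule and alternatives were chosen with earlier results of these data known. Gene positions are those of the deposited table (TAIR10), and promoters are RefSeq TAIR10.1, matched by gene ID. Alternatives were other scalings, filters and tools (DESeq2 1.42.0, limma 3.58.1), a replicate block, and leaving libraries out.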

Additional observations from a re-analysis of the deposited data

Results flagged for a closer look

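Differences of the NaCl response between the genotypes are listed here because the interaction tests them directly. By edgeR's quasi-likelihood test 5017 genes had a positive and 3888 a negative interaction. Among genes called in opposite directions in the 2 genotypes, those that fell in wild type and rose in camta6-5 with the largest interaction were GH3.5 (3.69 on the log2 scale), ATSPLA2-ALPHA (2.83), TBL38 (2.59), AT1G15405 (2.57) and AT5G53740 (2.52). Those that rose in wild type and fell in camta6-5 were AT5G13210 (-2.57), anac044 (-1.92), AT1G69760 (-1.81), AT1G26540 (-1.76) and AT1G24095 (-1.71). Each of these 10 genes was called under every alternative run for it. TBL38 and AT5G53740 overlap a neighbour, which in the case of TBL38 has more counts, so those reads are of uncertain origin. No single library was tested for standing apart, since groups held 3 libraries.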

How the results depend on the processing

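Under other scalings, filters and tools the counts of called genes stayed within 1.5 times of 5017 positive and 3888 negative. They were 4720 and 4237 with RLE factors, 5094 and 3601 with no scaling factors, 4772 and 3802 with no filter, 4643 and 3677 with a stricter filter, 4642 and 4188 in DESeq2, and 4980 and 3867 in limma voom. Leaving out 1 library at a time gave 4318 to 4817 positive and 3433 to 4066 negative genes, with 1947 to 2309 and 770 to 1021 of at least 2-fold. Without the 5 libraries richest in 18S rRNA, an alternative known from earlier results of these data (its counts per list were added after seeing the data), the counts were 2607 and 1970, with 1 library left in each camta6-5 group, assumed to vary like the others; that fit has fewer samples, and 1799 and 653 were of at least 2-fold. In these settings, 0 of the genes called both there and with 12 libraries had the opposite direction. The median share of the wild-type response was 0.436 over rises and falls together, 0.441 with RLE factors and 0.640 when genes were chosen in camta6-5.

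With the replicate number as a block (replicate block) 5078 genes were positive and 3897 negative. Deviations of same-numbered libraries correlated at -0.218 to 0.27 over 18 pairs, and of differently numbered ones at -0.275 to 0.266. The numbers were not taken as pairs. Between the 2 control groups alone the same-numbered pairs stood at 0.225, 0.179 and 0.27, above the differently numbered ones, which ran from -0.275 to 0.1. Whether the controls were paired by number was not tested. With the block CAMTA6 (adjusted p = 0.0467) and CBP60G (0.0371) gained a call, and CAMTA5 (0.0622) and STS (0.0771) lost one. Over 128 named genes and their alternatives, 2449 of 2556 results kept their side of the threshold and 85 lost it. Signs reversed for EDS1 without wild-type NaCl replicate 1 (0.083), and for EPR1 without wild-type control replicate 1 (-0.14) and without the 5 libraries (-0.14); neither gene was called, and the cause was not tested. Of genes with at most 1 CPM in their highest group 16.4% were called, against 62.4% above 100 CPM, and the part of depth in this was not tested.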

Other observations

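The 5 nuclear chromosomes gave similar shares of called genes, 47.3% to 49.3%, with median interactions of 0.04 to 0.07 on the log2 scale. Of 48 tested mitochondrial genes, 4 were called, all negative (8.33%), with a median interaction of -0.50. Mean GC content of the 300-base promoters was 31.5% for positive, 31.8% for negative and 31.9% for genes not called.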
